A study of Mus musculus with 96 samples.

Results

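The comparison described here set the brains of clozapine-treated NOD/ShiLtJ mice against those of clozapine-treated C57BL/6J mice. It used the 1.1ST arrays of every mouse labelled as given clozapine, which were 24 of the 48 arrays of that format and came from 8 of the 16 mice of the series. Each mouse entered as the mean of its 3 arrays (forebrain, hindbrain and whole brain), so that 4 NOD/ShiLtJ mice (DD658, DD675, DD676 and DD678) were compared with 4 C57BL/6J mice (BB685, BB701, BB702 and BB703).

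Gene expression was measured in 3 brain samples of male mice of both inbred strains, each given a single intraperitoneal injection of clozapine or of vehicle. Every tissue sample was hybridised to 2 formats of 1 Affymetrix mouse gene array, and the 96 arrays of the series make up both formats. The clozapine dose was 4 mg/kg, the vehicle was 0.9% saline, the mice were 14 weeks old and singly housed, and brains were taken 3 hours after the injection. One hemisphere was kept intact as whole brain, the other was divided into forebrain and hindbrain, and the cerebellum was removed. The groups were therefore NOD/ShiLtJ with clozapine and C57BL/6J with clozapine, and NOD/ShiLtJ with vehicle and C57BL/6J with vehicle, with 4 mice each. Body weight was 28.3 to 31.3 g in the clozapine-treated NOD/ShiLtJ mice and 24.7 to 26.3 g in the clozapine-treated C57BL/6J mice, and litter size was 9 to 11 pups against 6 to 8 pups, so that neither can be told apart from strain.

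NOD/ShiLtJ is an inbred strain widely used as a model of autoimmune diabetes, and C57BL/6J is the source of the mouse reference genome. Clozapine is an antipsychotic that binds dopamine, serotonin, muscarinic, histamine and adrenergic receptors. A difference between inbred strains can reach an array through the amount of a transcript, through its splicing, or through a base change under a probe, which alters hybridisation. The probes were not masked for strain variants here, and the number of mice limits the precision of every value.

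Values are log2 expression after robust multi-array averaging (RMA), a difference is NOD/ShiLtJ minus C57BL/6J, and a difference of 1 is a 2-fold change. A transcript was called when its false discovery rate (FDR) from limma's test across all transcripts was below 0.05. The labels were checked first. Nnt, the mitochondrial transhydrogenase that carries a deletion in C57BL/6J, was at 9.04, 9.13, 9.09 and 9.09 in the NOD/ShiLtJ mice, against 8.45, 8.46, 8.52 and 8.43 in the C57BL/6J mice, and no values overlapped. The difference was 0.62 ± 0.04 (SE, n = 4 mice each; limma FDR 1.42e-06). Mean levels of 8 telencephalic genes were 9.49 to 9.68 in NOD/ShiLtJ and 9.42 to 9.72 in C57BL/6J forebrains, against 5.88 to 6.38 and 6.03 to 7.66 in the hindbrains of NOD/ShiLtJ and C57BL/6J. These 8 genes came from earlier results of these data, so the separation of forebrains from hindbrains is a description and no independent check of the labels.

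Some hindbrains and whole brains, and a forebrain, held cerebellar signal. The mean of 15 cerebellum markers was 8.53, 7.0, 8.85 and 9.37 in the hindbrains of NOD/ShiLtJ mice DD658, DD675, DD676 and DD678, against 6.86, 8.47, 6.83 and 7.61 in those of C57BL/6J mice BB685, BB701, BB702 and BB703. Vehicle-treated hindbrains were at 6.76 to 7.26 in NOD/ShiLtJ and 6.80 to 6.95 in C57BL/6J. Thus 3 of the 4 NOD/ShiLtJ clozapine hindbrains and 2 of the 4 C57BL/6J clozapine hindbrains lay above every vehicle hindbrain. In whole brain the markers were at 7.13, 7.37, 6.57 and 6.63 in DD658, DD675, DD676 and DD678, against 6.57 to 6.80 in clozapine-treated C57BL/6J. Vehicle whole brains reached 7.45 in NOD/ShiLtJ and 7.54 in C57BL/6J. In forebrain DD678 was at 6.95, against 6.22 to 6.47 in clozapine-treated C57BL/6J. The forebrain of NOD/ShiLtJ mouse DD678 also stood apart, with a mean of 7.13 over 10 brainstem genes, while the other clozapine forebrains were at 5.50 to 5.67 in NOD/ShiLtJ and 5.24 to 5.80 in C57BL/6J. Vehicle arrays varied as well. The whole brain of vehicle-treated NOD/ShiLtJ mouse DD656 was at 9.09 for the brainstem and 8.16 for the telencephalic genes. The other vehicle-treated NOD/ShiLtJ whole brains were at 7.57 to 7.84 and 9.29 to 9.46. In vehicle-treated C57BL/6J mouse BB707 the whole brain was at 8.42 and 8.88. The forebrain array of NOD/ShiLtJ mouse DD676 had the lowest median of all transcripts, 6.28, against 6.47 to 6.58 on the other clozapine arrays. Counts without the hindbrain arrays, a choice made after these values were seen, are therefore given beside each gene group. They still include the whole brain and forebrain arrays with cerebellar signal, so they do not remove all of it.

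**Figure D1:**
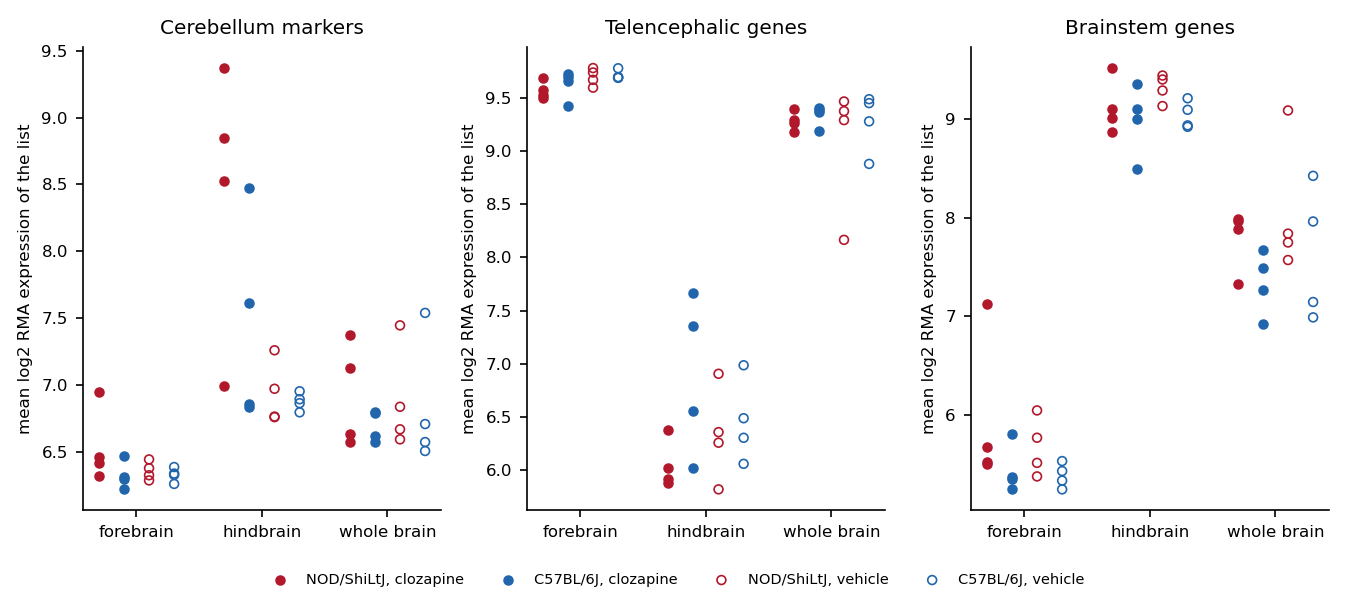
Mean log2 RMA expression of 15 cerebellum markers, 8 telencephalic genes and 10 brainstem genes on each array, by brain sample (1 point per mouse; filled, clozapine; open, vehicle). The clozapine hindbrains spread from 6.83 to 9.37 for the cerebellum markers, while the vehicle hindbrains lie between 6.76 and 7.26.

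The strains differed in a large share of the transcriptome. Of 28310 transcripts, 5143 (18.2%) were called, 2542 of them higher (8.98%) and 2601 lower (9.19%) in NOD/ShiLtJ, so that 49.4% of the calls were higher. With each array centred on its median, 6858 were called and 67.9% were higher, so the balance of directions depended on the scaling. The typical difference was small, with a median size of 0.24 over the calls, and 168 calls exceeded 2-fold, 47 higher and 121 lower in NOD/ShiLtJ. Values of the 4 mice of a strain lay wholly above those of the other strain for 5583 transcripts (19.7%), which included 167 of the 168 calls over 2-fold. The first principal component of the 8 mouse means held 60.4% of the variance. Without the hindbrain arrays 2940 transcripts were called.

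The genes with the largest differences, 12 in each direction, were taken from calls with 1 gene name in which the strains did not overlap. Their lack of overlap was therefore set by the choice. The genes with the largest higher values in NOD/ShiLtJ were led by Ccl19, a chemokine that guides lymphocytes and dendritic cells through the receptor Ccr7. Ccl19 was at 9.56, 9.47, 9.60 and 9.45 in the NOD/ShiLtJ mice, against 7.03, 6.85, 6.64 and 6.97 in the C57BL/6J mice. The lowest NOD/ShiLtJ mouse was more than 2 log2 units above the highest C57BL/6J mouse, and the difference was 2.65 ± 0.08 (SE, n = 4 each), 6.28-fold (limma FDR 1.57e-08). The array holds 5 transcript clusters for Ccl19, a gene with near-identical copies, and their differences ran between 2.44 and 2.71; 2 of the 5 clusters have identical values, so the copies cannot be separated. On the 1.0ST arrays the difference was 1.81.

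A pair of retinoid genes was also among them. Retsat, the retinol saturase, was at 9.38, 9.31, 9.19 and 9.28 in NOD/ShiLtJ, against 7.46, 7.60, 7.58 and 7.50 in C57BL/6J. Rarres1, which is induced by retinoic acid, was at 6.72, 6.50, 6.25 and 6.56 in NOD/ShiLtJ, against 4.66, 4.77, 4.71 and 4.42 in C57BL/6J. The differences were 1.75 ± 0.05 (3.37-fold, limma FDR 1.57e-08) and 1.87 ± 0.10 (3.65-fold, limma FDR 5.22e-07) (SE, n = 4 each). Fv1, a retroviral restriction factor derived from an endogenous virus, was at 8.96, 9.13, 8.84 and 8.96 in NOD/ShiLtJ, against 7.51, 7.69, 7.62 and 7.59 in C57BL/6J, a difference of 1.37 ± 0.06 (SE, n = 4 each; limma FDR 1.85e-07). The other genes of this group, with their log2 differences, were the small nucleolar RNA gene Snord53 (1.98), the cytosolic phospholipase Pla2g4e (1.81), the meiotic recombination gene Psmc3ip (1.41), C330024D21Rik (1.40), the hydrolase Abhd1 (1.38), the alpha-1 antitrypsin gene Serpina1b (1.36), Gm14403 (2.51-fold higher, on the linear scale) and Gabra6 (1.53), which is described with the cerebellar genes. The members of the Serpina1 family are close copies of each other, so the value of Serpina1b is uncertain as to the copy.

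Among transcripts with 1 gene name, the largest lower value in NOD/ShiLtJ was that of 4930578G10Rik, a transcript without an assigned role here. It was at 4.87, 4.97, 4.67 and 5.19 in NOD/ShiLtJ, against 9.03, 8.75, 8.86 and 8.81 in C57BL/6J, a difference of -3.94 ± 0.10 (SE, n = 4 each), 15.3-fold (limma FDR 9.47e-09). Pttg1, which encodes securin, was at 5.82, 5.61, 5.45 and 6.05 in NOD/ShiLtJ, against 8.65, 8.76, 8.64 and 8.68 in C57BL/6J. The C57BL/6J mice lay close together, and the difference was -2.95 ± 0.11 (SE, n = 4 each), 7.72-fold (limma FDR 3.85e-08). Crym, which encodes mu-crystallin, a thyroid hormone binding protein, was at 6.59, 6.56, 6.70 and 6.57 in NOD/ShiLtJ, against 9.68, 8.83, 9.28 and 8.91 in C57BL/6J. Here the C57BL/6J mice varied more than the NOD/ShiLtJ mice, and the difference was -2.57 ± 0.15 (SE, n = 4 each), 5.94-fold (limma FDR 1.15e-06).

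Ndufs5, a subunit of mitochondrial complex I, was at 6.54, 6.47, 6.14 and 6.34 in NOD/ShiLtJ, against 8.41, 8.56, 8.53 and 8.27 in C57BL/6J, a difference of -2.07 ± 0.09 (SE, n = 4 each; limma FDR 1.27e-07). Trim12a, a mouse relative of the retroviral restriction factor TRIM5, was at 3.76, 3.66, 3.79 and 3.60 in NOD/ShiLtJ, against 5.56, 5.86, 5.46 and 5.93 in C57BL/6J, a difference of -2.0 ± 0.10 (SE, n = 4 each; limma FDR 2.84e-07). Both genes were separated between the strains in every mouse, which the choice of genes required. The group was completed by 3830406C13Rik (-3.02), AA388235 (-2.59), G530011O06Rik (-2.32), the histone gene H4c4 (-2.28), the actin regulator Carmil1 (-2.24), 4930447C04Rik (-2.18) and Gm5148 (-2.14). Histone H4 genes form a multigene family, so the value of H4c4 is uncertain as to the copy.

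The 24 genes kept their direction on the 1.0ST arrays, where all 24 were called, and 22 of the 24 were called in forebrain, hindbrain and whole brain alike. The exceptions were Gabra6, called in no single region, and Serpina1b, with a forebrain FDR of 0.0568. The genes were chosen on the mean of these same regions, and the 1.0ST arrays hold samples of the same mice. Both favour agreement, so neither is an independent check. In the vehicle mice, which are separate animals, 23 of the 24 were called in the same direction, and the strain difference in clozapine minus that in vehicle was at most 0.23 in size for those 23.

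**Figure D2:**
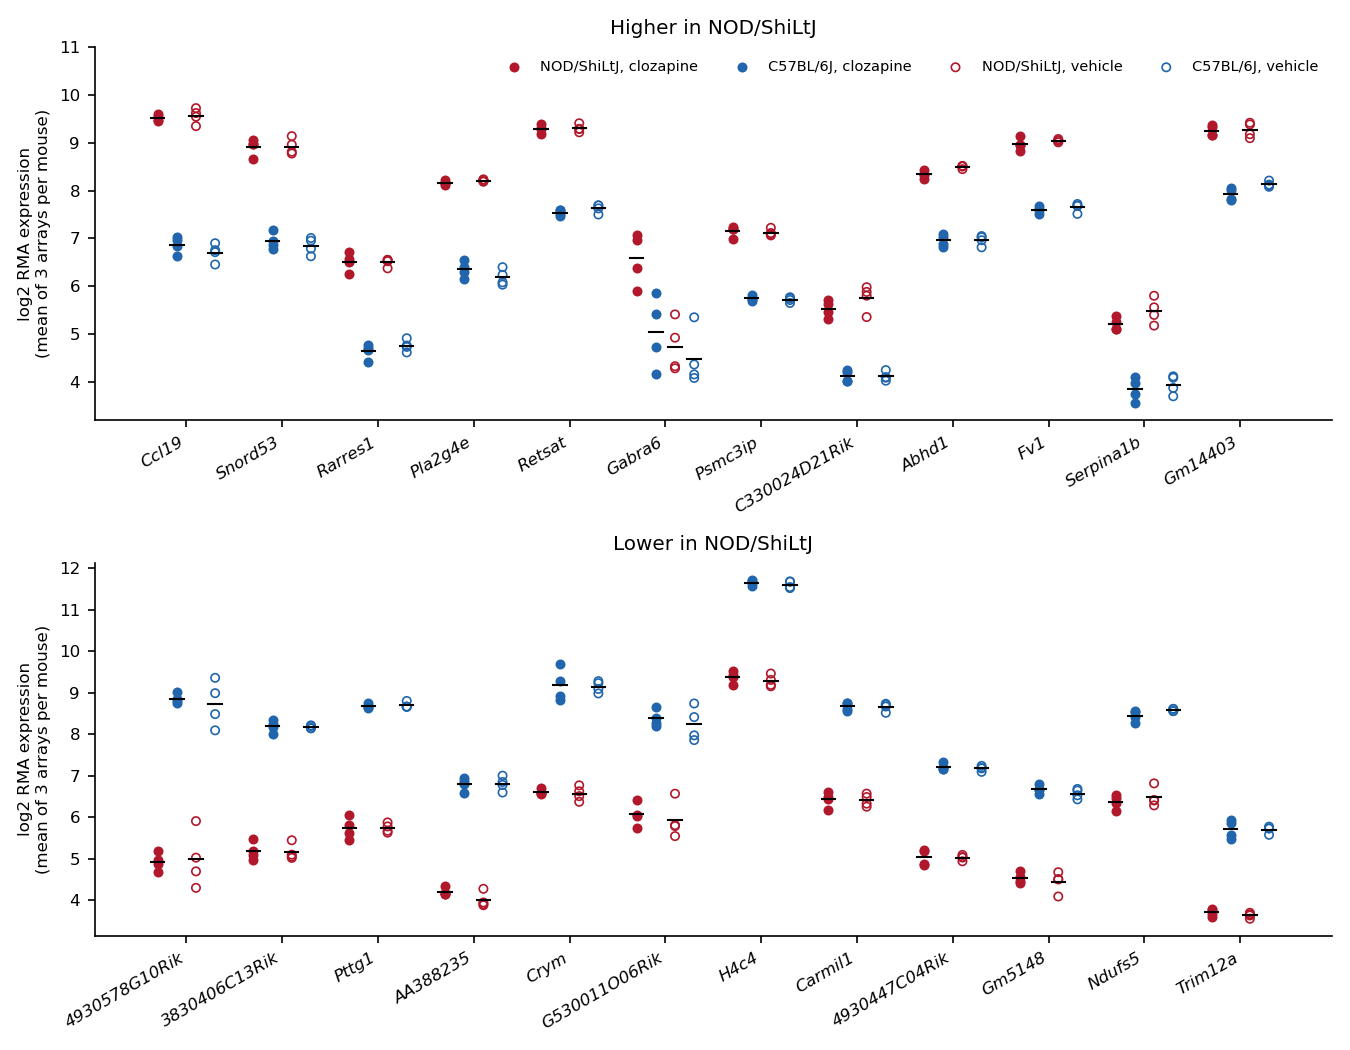
Log2 RMA expression of the 24 named genes with the largest strain differences, 1 point per mouse (mean of 3 arrays), with a bar at each group mean (filled, clozapine; open, vehicle; red, NOD/ShiLtJ; blue, C57BL/6J). The genes were chosen among calls whose clozapine groups do not overlap. Gabra6 alone spreads widely, with 5.90 to 7.07 in NOD/ShiLtJ and 4.17 to 5.87 in C57BL/6J.

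Gabra6 and Cbln3 were the only calls over 2-fold that were not called in the vehicle mice. Gabra6 encodes the GABA-A receptor subunit of cerebellar granule cells, and Cbln3 encodes a cerebellin of the same cells. Gabra6 was at 6.97, 5.90, 6.38 and 7.07 in the NOD/ShiLtJ mice, against 4.72, 5.87, 4.17 and 5.42 in the C57BL/6J mice, a difference of 1.53 ± 0.35 (SE, n = 4 each; limma FDR 0.00924). In the hindbrain alone it was at 9.90, 6.14, 10.42 and 10.82 in NOD/ShiLtJ mice DD658, DD675, DD676 and DD678, against 5.01, 9.38, 4.11 and 7.10 in C57BL/6J mice BB685, BB701, BB702 and BB703. The high hindbrains of both strains were those with high cerebellum markers. Gabra6 and Cbln3 are themselves among these markers, so this agreement is partly built in. Cbln3 differed by 1.14 ± 0.34 (SE, n = 4 each; limma FDR 0.0298), with mice of both strains overlapping. The vehicle differences were 0.25 for Gabra6 (limma FDR 0.490) and 0.03 for Cbln3 (limma FDR 0.672). Without the hindbrain arrays the differences were 0.84 (limma FDR 0.0433) and 0.53 (limma FDR 0.143). Gabra6 was then still at 7.54 and 6.84 in the whole brains of DD675 and DD658 and at 6.03 in the forebrain of DD678. The other NOD/ShiLtJ forebrains and whole brains were at 4.02 to 4.58, and those of C57BL/6J at 3.92 to 5.17.

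Of the 15 cerebellum markers measured, 6 were higher in clozapine-treated NOD/ShiLtJ and 0 were lower, with a median of 0.42, beside 8.58% higher and 9.83% lower (18.4% called) and a median of 0.01 over 18810 named genes. Gabra6 and Cbln3 are among the 6 higher markers. Without hindbrain fewer of the named genes were called, 802 higher and 1119 lower of the 18810. Of the cerebellum markers 3 were higher without hindbrain, with a median of 0.15, and in the vehicle mice 0 were called. Of the 8 telencephalic genes 3 were lower and 0 higher (median -0.31), against 0 in either direction without hindbrain, and of the 10 brainstem genes 2 were higher (median 0.38), against 1 without hindbrain. These last 2 lists came from earlier results of these data. In these whole-tissue samples fewer cells of a type and less RNA per cell cannot be told apart. The part of the dissection in these differences was not tested.

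Genes of antigen presentation and of antiviral defence were more often lower than higher in NOD/ShiLtJ, beside 9.83% lower and 8.58% higher over all named genes. Of 23 antigen presentation genes 6 were lower and 1 was higher (4 and 1 without hindbrain). H2-T23, a class Ib molecule of the major histocompatibility complex, was at 5.99, 6.14, 6.14 and 5.93 in NOD/ShiLtJ, against 6.80, 6.76, 7.01 and 6.95 in C57BL/6J (-0.83 ± 0.07, SE, n = 4 each). H2-K1, a classical class I heavy chain of different haplotype in the strains, was at 6.52, 6.23, 6.17 and 6.36 in NOD/ShiLtJ, against 6.96, 7.17, 6.99 and 7.38 in C57BL/6J (-0.80 ± 0.10, SE, n = 4 each). Neither overlapped between the strains. B2m, the class I light chain, differed by -0.39 ± 0.05, and Tapbp, which loads peptides on class I molecules, by -0.46 ± 0.06, while the immunoproteasome subunit Psmb10 was higher by 0.22 ± 0.07 (SE, n = 4 each). H2 genes are members of a polymorphic multigene family, so their values are uncertain as to the copy.

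Of 38 retroviral restriction and interferon-induced genes, 13 were lower and 2 higher in NOD/ShiLtJ, with a median of -0.15 (10 lower and 1 higher without hindbrain). The lower genes included Trim12a and its neighbours Trim30a (-0.37), Trim34a (-0.29) and Trim12c (-0.29), the viral RNA sensor Ifih1 (-0.49), the cytidine deaminase Apobec3 (-0.46), which restricts retroviruses, and the nuclear body gene Sp100 (-0.42). Apobec3 was at 4.92, 4.89, 4.87 and 4.78 in NOD/ShiLtJ, against 5.25, 5.34, 5.16 and 5.53 in C57BL/6J, with no overlap. The higher genes were Fv1 and Mx2 (0.23 ± 0.07), an interferon-induced GTPase that was no longer called without hindbrain (limma FDR 0.151). The vehicle mice gave 15 lower and 2 higher genes of this list, beside 6.62% lower and 6.15% higher of all named genes. Of 23 chemokines and receptors 4 were higher and 5 lower (4 and 2 without hindbrain), the higher ones being Ccl19, the T cell attractant Ccl17 (0.85 ± 0.08), the receptor Ccr6 (0.71 ± 0.04) and the monocyte attractant Ccl2 (0.25 ± 0.05) (SE, n = 4 each). Ccr7, the receptor of Ccl19, was lower, at 5.66, 5.69, 5.83 and 5.64 in NOD/ShiLtJ, against 5.95, 5.90, 5.91 and 5.87 in C57BL/6J (-0.21 ± 0.05, SE, n = 4 each; limma FDR 0.00916). It was not called without hindbrain (-0.14, limma FDR 0.171) or with vehicle (-0.13, limma FDR 0.0548).

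Of 26 receptors that clozapine binds, 8 were lower and 0 higher in clozapine-treated NOD/ShiLtJ mice, beside 9.83% lower and 8.58% higher of all named genes. Without the hindbrain arrays 1 was lower and 1 higher. The receptor that stayed lower without hindbrain, and that was called lower in each region, was Htr3a, the ion channel subunit of serotonin receptors, at 5.91, 5.54, 5.60 and 5.81 in NOD/ShiLtJ, against 6.84, 6.63, 6.53 and 6.52 in C57BL/6J. The strains did not overlap, and Htr3a differed by -0.91 ± 0.09 with clozapine (SE, n = 4 each; limma FDR 5.02e-05), by -0.90 without hindbrain and by -0.90 with vehicle. The dopamine receptor Drd1 was at 7.67, 7.64, 7.64 and 7.53 in NOD/ShiLtJ, against 8.48, 7.75, 8.28 and 8.07 in C57BL/6J. Its difference was -0.53 ± 0.13 (SE, n = 4 each; limma FDR 0.0111), -0.95 in hindbrain and -0.32 in forebrain, and it was not called without hindbrain (-0.31, limma FDR 0.0850). The hindbrains of C57BL/6J held more signal of telencephalic genes (6.03 to 7.66, against 5.88 to 6.38 in NOD/ShiLtJ), and the part of this in the receptor values was not tested. The muscarinic receptors Chrm4 (-0.33) and Chrm1 (-0.30), the dopamine receptors Drd3 (-0.33) and Drd2 (-0.19) and the histamine receptors Hrh3 (-0.22) and Hrh1 (-0.18) were likewise not called without hindbrain. Their differences were then -0.26 for Drd3, -0.20 for Chrm4, -0.11 for Hrh1, -0.10 for Drd2, -0.07 for Chrm1 and -0.06 for Hrh3, so that Drd3 kept most of its size and Chrm1 and Hrh3 little of it. In the vehicle mice 7 of the 26 were higher and 1 was lower, beside 6.15% higher and 6.62% lower of all named genes.

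Several, though not all, of the drug transporters of the blood-brain barrier were lower in NOD/ShiLtJ. Abcb1b and Abcb1a encode P-glycoprotein, which pumps many drugs out of cells, and Slco1a4 encodes an organic anion carrier of brain capillaries. Abcb1b was at 4.44, 4.56, 4.43 and 4.55 in NOD/ShiLtJ, against 5.92, 5.82, 5.61 and 5.65 in C57BL/6J, a difference of -1.26 ± 0.07 (SE, n = 4 each). Slco1a4 was at 7.99, 8.35, 7.85 and 7.84 in NOD/ShiLtJ, against 8.68, 9.06, 8.89 and 8.91 in C57BL/6J, a difference of -0.88 ± 0.11 (SE, n = 4 each). Abcb1a differed by -0.51 ± 0.08 (SE, n = 4 each), and these 3 genes showed no overlap between the strains and were also called with vehicle (-1.18 for Abcb1b, -0.55 for Slco1a4 and -0.38 for Abcb1a). Of 35 drug metabolism and efflux genes 7 were lower and 2 higher (5 and 2 without hindbrain), beside 9.83% lower and 8.58% higher of all named genes. The higher ones were the glutathione transferase Gsta4 (0.48) and the thyroid hormone carrier Slco1c1 (0.27), which is also found at the barrier. The efflux pumps Abcg2 (-0.12, limma FDR 0.122), Abcc4 (-0.08, limma FDR 0.185) and Abcc1 (-0.02, limma FDR 0.490) were not called.

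The endothelial and mural markers as a list were lower in clozapine-treated NOD/ShiLtJ. Of 22 genes 12 were lower and 1 was higher, with a median of -0.22, beside 9.83% lower and 8.58% higher of all named genes. Without hindbrain 7 were lower and 0 higher, with a median of -0.19. The vehicle mice gave 2 lower and 1 higher, with a median of -0.02, beside 6.62% lower and 6.15% higher of all named genes. The mean level of the list on forebrain arrays was 7.64 to 7.96 in NOD/ShiLtJ, against 8.02 to 8.30 in C57BL/6J, with no overlap. The 7.64 came from mouse DD676, whose forebrain array had the lowest median, and the other NOD/ShiLtJ forebrains were at 7.94 to 7.96. Hindbrains nearly touched, at 8.060 to 8.330 in NOD/ShiLtJ and 8.333 to 8.576 in C57BL/6J. Whole brains overlapped, at 7.91 to 8.02 and 7.96 to 8.21. With vehicle the forebrain level was 8.02 to 8.08 in NOD/ShiLtJ, against 7.99 to 8.13 in C57BL/6J. Slco1a4 and Abcb1a belong to both lists. Members that were lower included Slco1a4, Abcb1a, the angiopoietin receptor Tek (-0.40 ± 0.08) and the smooth muscle actin Acta2 (-0.57 ± 0.14), which was not called without hindbrain (limma FDR 0.101). The pericyte gene Rgs5 was the member that was higher (0.19 ± 0.04) (SE, n = 4 each). For Tek and Acta2 the strain-by-treatment term was not called (limma FDR 0.622 and 0.607).

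The other cell type lists held fewer calls, and stand beside 9.83% lower and 8.58% higher of all named genes. Of 21 microglia markers 4 were lower and 1 higher (3 and 0 without hindbrain). Fcrls, an Fc receptor-like gene of mouse microglia, was at 6.28, 6.06, 6.11 and 6.01 in NOD/ShiLtJ, against 7.56, 7.56, 7.73 and 7.70 in C57BL/6J (-1.52 ± 0.07), and the complement gene C1qc differed by -0.59 ± 0.09 (SE, n = 4 each). Both were separated in every mouse, while the microglial gene Tmem119 was higher (0.19). Of 23 astrocyte markers 5 were higher and 4 lower (3 and 3 without hindbrain), with Gfap, the astrocyte intermediate filament, at 9.84, 9.74, 9.75 and 9.73 in NOD/ShiLtJ, against 9.25, 9.20, 9.07 and 9.14 in C57BL/6J (0.60 ± 0.05, SE, n = 4 each). Of 21 oligodendrocyte and myelin markers 3 were higher and 1 lower (1 and 1 without hindbrain), and of 14 neuron markers 1 was higher and 0 lower (0 and 0 without hindbrain). Choroid plexus markers gave 0 calls of 15 over the 3 regions (4 lower without hindbrain), pituitary markers 0 of 8 (0 without hindbrain), olfactory bulb markers 2 higher of 9 (0 without hindbrain), and blood and lymphocyte markers 1 higher and 1 lower of 18 (1 and 0 without hindbrain).

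**Figure D3:**
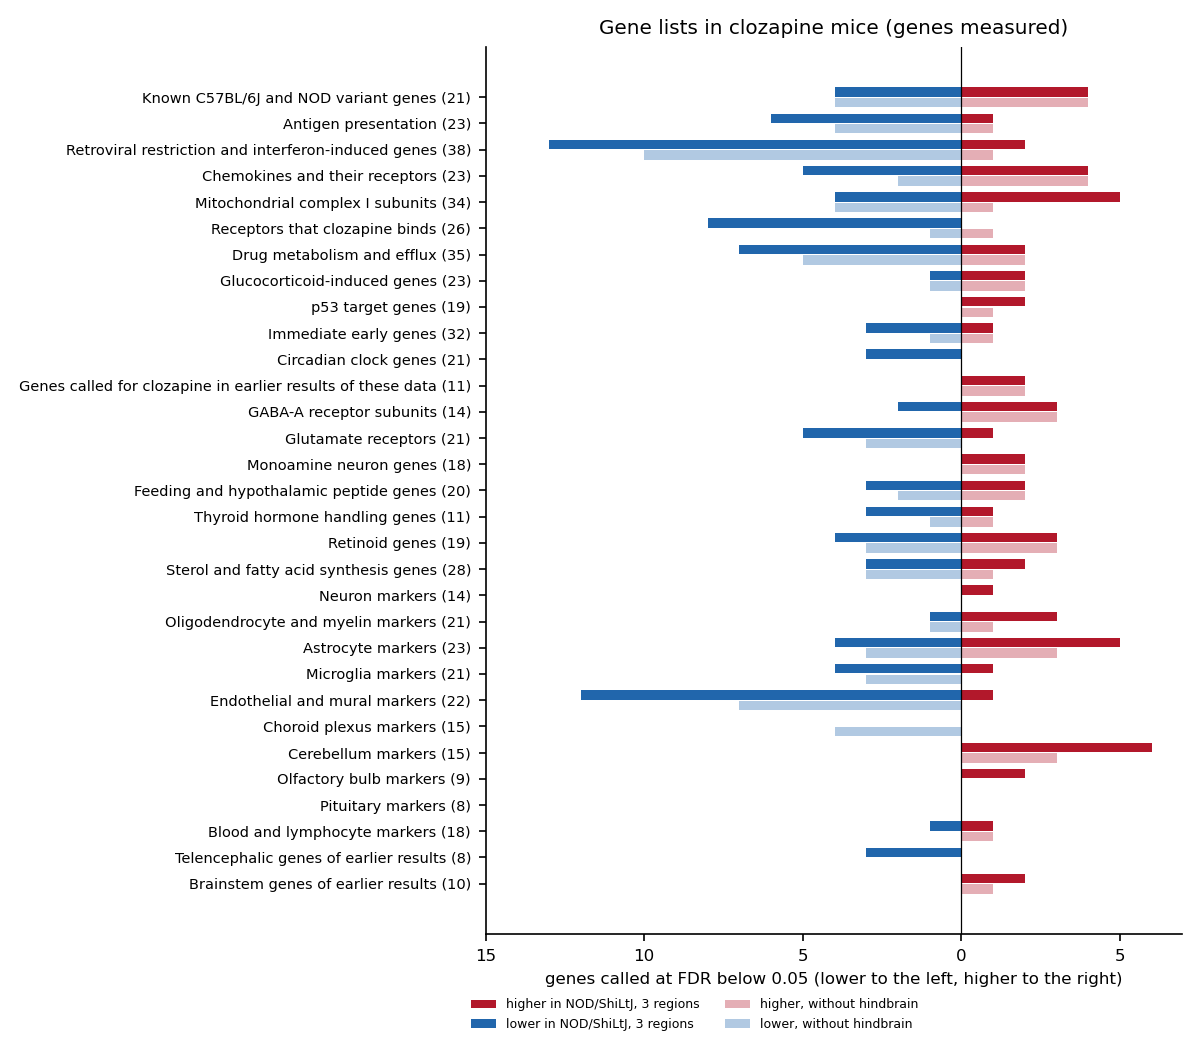
Genes called higher (to the right) or lower (to the left) in clozapine-treated NOD/ShiLtJ than in C57BL/6J mice, by list, with the number of genes measured in brackets (dark bars, mean of 3 regions; light bars, without hindbrain). The endothelial and mural list holds 12 lower genes of 22, and the 8 lower genes of the receptor list fall to 1 without hindbrain.

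Most lists of transmission, hormone handling and metabolism genes held calls in both directions, beside 8.58% higher and 9.83% lower of all named genes. Of 14 GABA-A receptor subunits 3 were higher and 2 lower (3 and 0 without hindbrain), among them Gabra2, whose expression a C57BL/6J deletion is known to lower, with a mean of 10.14 in NOD/ShiLtJ and 9.20 in C57BL/6J, no overlap and a difference of 0.94 ± 0.05 (SE, n = 4 each). Of 21 genes with known variants in these strains 4 were higher and 4 lower with and without hindbrain, the largest being Wdfy1 (1.00). Of 21 glutamate receptors 5 were lower and 1 higher (3 and 0 without hindbrain), led by Grin2b (-0.35), and of 18 monoamine neuron genes 2 were higher with and without hindbrain. Of 34 complex I subunits 5 were higher and 4 lower, against 1 higher and 4 lower without hindbrain. Of 20 feeding and hypothalamic peptide genes 2 were higher and 3 lower (2 and 2 without hindbrain), with the neuropeptides Gal at 0.69 ± 0.09 and Npy at -0.46 ± 0.07 (SE, n = 4 each). Of 11 thyroid hormone handling genes 1 was higher and 3 lower (1 and 1 without hindbrain), and of 28 sterol and fatty acid synthesis genes 2 were higher and 3 lower (1 and 3 without hindbrain).

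Of 19 retinoid genes 3 were higher and 4 lower (3 and 3 without hindbrain), beside 8.58% higher and 9.83% lower of all named genes. Beside Retsat and Rarres1 the receptor Rara was higher (0.16), whereas the receptors Rxrg (-0.49 ± 0.08) and Rarb (-0.49 ± 0.07), Rxra (-0.17) and the retinol binding protein receptor Stra6 (-0.24) were lower (SE, n = 4 each). Rxra was not called without hindbrain (-0.08, limma FDR 0.279). Rarb was at 8.76, 8.67, 8.63 and 8.48 in NOD/ShiLtJ, against 9.11, 9.00, 9.12 and 9.27 in C57BL/6J. The strains did not overlap for Rarb with clozapine, and its vehicle difference was 0.04.

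Genes that respond to stress hormones, activity or the clock stand beside the 18.4% of all named genes that were called. Of 23 glucocorticoid-induced genes 2 were higher and 1 lower with and without hindbrain. Pdk4, a kinase that restrains glucose oxidation, was at 8.26, 8.51, 8.11 and 7.93 in NOD/ShiLtJ, against 7.75, 7.38, 7.29 and 7.53 in C57BL/6J (0.72 ± 0.13, SE, n = 4 each). Fkbp5, a chaperone that dampens glucocorticoid receptor signalling, was at 8.89, 9.02, 8.93 and 8.93 in NOD/ShiLtJ, against 9.06, 8.29, 8.29 and 8.13 in C57BL/6J (0.50 ± 0.16, SE, n = 4 each; limma FDR 0.043). C57BL/6J mouse BB685 lay above all NOD/ShiLtJ mice while the other 3 lay below them. Of 32 immediate early genes 1 was higher and 3 lower (1 and 1 without hindbrain), with the prostaglandin synthase Ptgs2 at -0.54 ± 0.06, of 21 clock genes 3 were lower and 0 higher (0 without hindbrain), and of 19 p53 target genes 2 were higher and 0 lower (1 and 0 without hindbrain). Of 11 genes called for clozapine in earlier results of these data, which is no independent choice, 2 were higher with and without hindbrain (Tma16, 0.80 ± 0.16, and Synm, 0.32 ± 0.07) (SE, n = 4 each).

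A stretch of imprinted miRNA genes on chromosome 12, between the non-coding RNA gene Meg3 and Dio3, was singled out after its values were seen. In mammals these miRNAs are expressed from the maternal chromosome as a long cluster, with high levels in brain, and a mature miRNA pairs with its targets through the seed at bases 2 to 8. The array measures a transcript cluster at each gene and not the mature miRNA. The mature sequences of the genes with the largest differences, and of the pair that shared a seed, are given 5′ to 3′ from RefSeq (GRCm38.p6), with the seed in capitals. All 20 called genes of the stretch matched, with 37 mature sequences.
mmu-miR-485-3p: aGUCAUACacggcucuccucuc
mmu-miR-668-3p: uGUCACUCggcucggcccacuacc
mmu-miR-300-3p: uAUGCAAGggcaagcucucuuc
mmu-miR-487b-5p: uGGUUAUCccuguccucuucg
mmu-miR-665-3p: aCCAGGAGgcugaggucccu
mmu-miR-376b-3p: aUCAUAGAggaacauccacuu
mmu-miR-379-3p: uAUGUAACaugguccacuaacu
mmu-miR-411-3p: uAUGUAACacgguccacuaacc
mmu-miR-154-3p: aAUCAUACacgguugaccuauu

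All lie on the plus strand, miR-665-3p at chr12:109586368-109586387, miR-379-3p at chr12:109709102-109709123, miR-411-3p at chr12:109710225-109710246, miR-376b-3p at chr12:109723508-109723528, miR-300-3p at chr12:109724363-109724384, miR-487b-5p at chr12:109727347-109727367, miR-668-3p at chr12:109734774-109734797, miR-485-3p at chr12:109734946-109734967 and miR-154-3p at chr12:109738474-109738495. The 37 sequences held 36 seeds, and the shared seed was AUGUAAC, in miR-379-3p and miR-411-3p. The genes with the largest differences each had seeds of their own.

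Of the 36 miRNA genes measured in the stretch, 19 were lower and 1 was higher in clozapine-treated NOD/ShiLtJ mice, 34 had a negative difference, and the median was -0.23. Of all named genes 9.83% were lower and 8.58% higher. Among the other 241 miRNA genes 13 were lower and 5 higher, with a median of 0.02. Mir485 was at 7.40, 7.77, 7.46 and 7.51 in NOD/ShiLtJ, against 8.33, 8.36, 8.31 and 8.40 in C57BL/6J, with no overlap and a difference of -0.82 ± 0.07 (SE, n = 4 each; limma FDR 1.77e-05). Mir668 was at 6.98, 7.33, 7.11 and 7.30 in NOD/ShiLtJ, against 7.85, 7.88, 7.85 and 8.14 in C57BL/6J (-0.75 ± 0.09, SE, n = 4 each). Mir300 was at 6.82, 7.31, 6.81 and 6.87 in NOD/ShiLtJ, against 7.68, 7.59, 7.54 and 7.65 in C57BL/6J (-0.67 ± 0.10, SE, n = 4 each). In each of these genes NOD/ShiLtJ mouse DD675 was the highest of its strain and still below every C57BL/6J mouse. Mir487b (-0.65), Mir665 (-0.58), Mir376b (-0.53), Mir370 (-0.48) and Mir495 (-0.48) followed, and Mir154, the seed of whose 3p form is AUCAUAC, was the gene that was higher (0.55 ± 0.09, SE, n = 4 each).

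The median of the stretch was -0.33 in forebrain, -0.21 in hindbrain and -0.19 in whole brain, and 16 genes were lower and 1 higher without hindbrain. Of 18810 named genes 1119 were lower and 802 higher without hindbrain. The 1.0ST arrays gave 15 lower and 0 higher, and Mir154 was not called there (0.09, limma FDR 0.458). In the vehicle mice 4 of the stretch were lower and 2 higher, beside 6.62% lower and 6.15% higher of all named genes. The vehicle median of the stretch was -0.03, with 20 negative differences. Mir376b differed by 0.02 and Mir300 by -0.23 with vehicle, against -0.66 for Mir485 and 0.84 for Mir154. The strain-by-treatment term was negative in 35 of the 36 genes and reached the FDR threshold in none of them (Mir376b, -0.55, limma FDR 0.581). These genes lie in 1 cluster and are not independent replicates. With vehicle the mean level of the stretch was 7.15 in C57BL/6J mouse BB708, against 7.32, 7.48 and 7.51 in BB686, BB687 and BB707. Vehicle-treated NOD/ShiLtJ mice were at 7.23 to 7.36, so the vehicle median leans on BB708. Meg3 itself was lower (-0.19 ± 0.04, SE, n = 4 each; limma FDR 0.00801), while Rian (0.04) and Dlk1 (0.12) were not called.

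**Figure D4:**
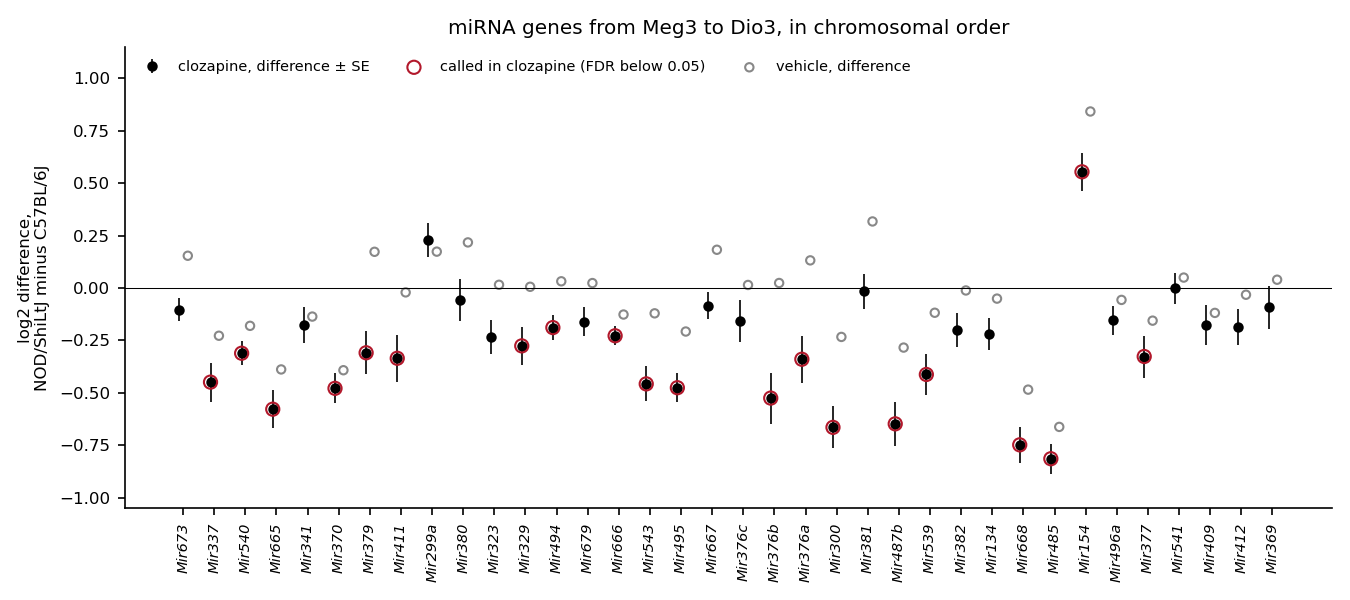
Log2 strain difference (NOD/ShiLtJ minus C57BL/6J) of the miRNA genes between Meg3 and Dio3, in chromosomal order, with clozapine (filled, ± SE, n = 4 mice each) and with vehicle (open). Of the 36 genes 34 lie below 0 with clozapine and 20 with vehicle, and Mir154 is the called gene above 0.

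The strain difference was then compared across brain samples. In forebrain 1042 transcripts were called (3.68%), 376 higher and 666 lower in NOD/ShiLtJ (36.1% higher, or 52.0% of 1208 calls with centred arrays). In hindbrain 1517 were called (5.36%), 696 higher and 821 lower, and in whole brain 1336 (4.72%), 622 higher and 714 lower. All 3 samples shared 591 calls, each in 1 direction, and 96.1% of the calls of the mean had the same sign in the 3 samples, beside 49.1% of all transcripts. The calls were made on the mean of the same samples, which favours equal signs. The forebrain count fell to 693 without C57BL/6J mouse BB685 and 587 without mouse BB701. The hindbrain count was 2596 without NOD/ShiLtJ mouse DD675 and 2337 without C57BL/6J mouse BB701, the mice with the lowest cerebellum markers of the NOD/ShiLtJ and the highest of the C57BL/6J hindbrains, and lay between 830 and 990 without NOD/ShiLtJ mouse DD658, DD676 or DD678 or C57BL/6J mouse BB702 or BB703.

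A strain difference in hindbrain that differed from that in forebrain was called for 15 transcripts (0.053%), 11 higher and 4 lower, while 1644 had an unadjusted p below 0.05. Of the 11 higher, 4 have identical values and count as 1 measurement, and these were lower in NOD/ShiLtJ in both samples (-2.17 in forebrain and -1.12 in hindbrain). Only 3 of the 15 carry 1 gene name. Tmprss11d, a transmembrane serine protease, was at 5.52, 5.89, 5.21 and 5.09 in NOD/ShiLtJ hindbrains, against 3.58, 3.62, 3.57 and 3.59 in C57BL/6J hindbrains. In forebrain it was at 3.56 to 3.88 in NOD/ShiLtJ, against 3.47 to 3.70 in C57BL/6J, so the strains overlapped there, and the term was 1.73 (limma FDR 0.0208). The term was -1.29 for the ion channel gene Pkd2l1 and -0.82 for the muscle methyltransferase gene Smyd1 (limma FDR 0.0485 for both), and both were lower in NOD/ShiLtJ hindbrains. The count was 43 without NOD/ShiLtJ mouse DD675, 6 without DD678 and 0 without DD658 or DD676, and 0 without C57BL/6J mouse BB685 and 2 without BB702.

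Finally, the strain difference with clozapine was set against that with vehicle. In the vehicle mice 3614 transcripts were called (12.8%), 1727 higher and 1887 lower in NOD/ShiLtJ. Both treatments shared 2436 calls, which were 47.4% of the clozapine calls and 67.4% of the vehicle calls, and 2433 of these had the same direction. Of the 168 clozapine calls over 2-fold, 166 were also called with vehicle in the same direction. Across all transcripts the differences correlated with r = 0.866 and rho = 0.560, a description over genes, which are not independent replicates and share the array. The 3 calls of opposite direction were small, namely Pln, an inhibitor of the sarcoplasmic calcium pump (-0.27 with clozapine, 0.31 with vehicle), Tpbpa (0.12 and -0.15) and Drd2, the dopamine receptor that antipsychotics block (-0.19 and 0.27). The strain-by-treatment term was called for none of the 3. Drd2 lay near the threshold (limma FDR 0.0306 with clozapine and 0.0488 with vehicle). Without hindbrain its clozapine difference was -0.10 and not called (limma FDR 0.350).

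**Figure D5:**
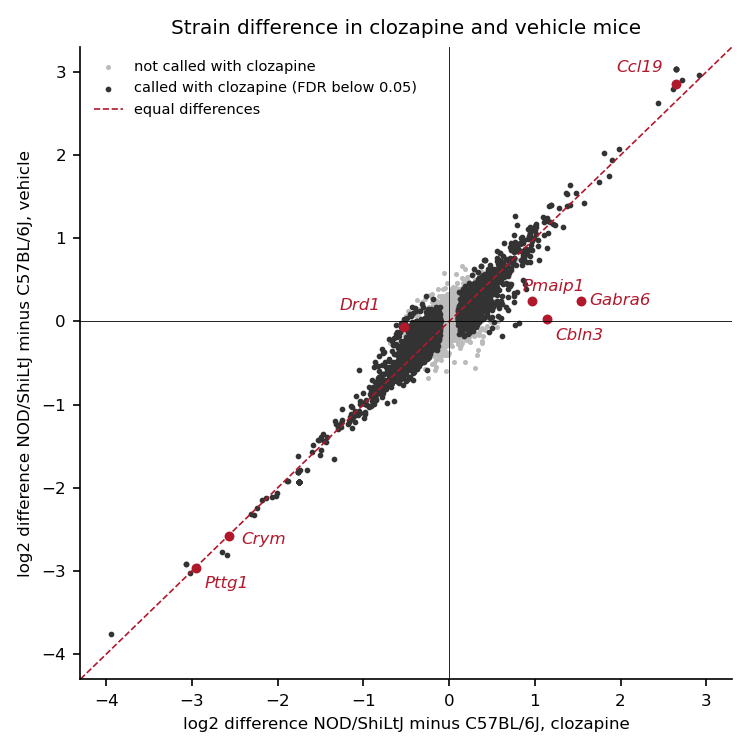
Log2 strain difference (NOD/ShiLtJ minus C57BL/6J) of 28310 transcripts with clozapine (x axis) and with vehicle (y axis); black points were called with clozapine, and the dashed line marks equal differences. Most large differences lie along the line, and Gabra6 (1.53 and 0.25) and Cbln3 (1.14 and 0.03) lie far to its right.

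The test of strain by treatment called 0 of 28310 transcripts with limma (lowest FDR 0.390), with 2039 (7.20%) at an unadjusted p below 0.05, and 0 also with Benjamini-Hochberg adjustment and on the 1.0ST arrays. The gene with the smallest p was Rnf125, a ubiquitin ligase of antiviral signalling. It was at 6.99, 6.95, 7.24 and 7.09 in clozapine-treated NOD/ShiLtJ and 6.52, 6.20, 6.49 and 6.58 in clozapine-treated C57BL/6J, and at 6.29, 6.66, 6.38 and 6.27 in vehicle-treated NOD/ShiLtJ and 6.61, 6.61, 6.65 and 6.40 in vehicle-treated C57BL/6J. The strains were separated with clozapine and overlapped with vehicle, and the term was 0.79 ± 0.13 (SE, 16 mice; limma FDR 0.390). It was called without NOD/ShiLtJ vehicle mouse DD657 (0.88, limma FDR 0.0426). Zfp189 (0.75, limma FDR 0.0121) was called without C57BL/6J mouse BB685 and Olfr655 (-0.54, limma FDR 0.00676) without C57BL/6J mouse BB701.

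Pmaip1, which encodes the p53-induced death protein NOXA, was at 6.54, 6.34, 6.65 and 6.80 in clozapine-treated NOD/ShiLtJ and 5.84, 5.40, 5.63 and 5.62 in clozapine-treated C57BL/6J. With vehicle it was at 5.86, 5.86, 5.61 and 5.80 in NOD/ShiLtJ and 5.45, 5.63, 5.54 and 5.55 in C57BL/6J. The strain difference was 0.96 ± 0.11 with clozapine and 0.24 with vehicle, and the term was 0.72 ± 0.13 (SE, 16 mice; limma FDR 0.463). The p53 targets Trp53inp1 and Cdkn1a had terms of 0.51 and 0.62 (limma FDR 0.581 for both), but their strain differences with clozapine were not called (limma FDR 0.0711 and 0.144). On the negative side Gpx6, an olfactory glutathione peroxidase, had a term of -0.50 ± 0.10 (SE, 16 mice), with differences of -0.70 with clozapine and -0.21 with vehicle. The other genes with the smallest p in each direction, Tpbpa, Igll1, 5730408K05Rik, Zdhhc12, Olfr655, Uchl1 and Thsd1, had terms between -0.45 and 0.37.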

How the data were processed

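Total RNA of forebrain, hindbrain and whole brain was measured on Affymetrix mouse gene arrays. The deposited values are log2 expression that the authors made by RMA (Affymetrix Expression Console 1.1, in the submitters' processing notes), for 28310 transcript clusters per array format; the genome build is not given in the sources used here, and batch and hemisphere are not used. Probes were not masked for strain variants, so a base change under a probe can alter a value. The 3 arrays of a mouse were averaged, with the region samples paired by mouse number. Deviations of the same mouse correlated at means of 0.060, 0.019 and 0.025 between regions.

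Strains were compared with limma 3.58.1 in R 4.3.3 (lmFit, eBayes), 4 mice against 4. The FDR followed the methods' formula with an estimated share of null transcripts, and calls were below 0.05. The strain-by-region test used each mouse's hindbrain minus forebrain, and strain by treatment used 16 mice. Gene names came from the platform annotation (21108 clusters, 18810 genes, the cluster with the highest mean for each), and 21075 of the clusters matched RefSeq. No filter on low values was applied. Alternatives were the 1.0ST format, Benjamini-Hochberg adjustment, a mean above 5, centred arrays, covariates and blocks, and leaving out mice or regions.

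The members and gene lists were chosen with earlier results of these data known. Genes named were the 12 largest differences in each direction without overlap, the 5 in each direction for strain by region and for strain by treatment, up to 4 called members in each direction of each list, and further ones named after their values were seen, among them the miRNA genes of chromosome 12. No label says that replicates are other than separate mice.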

Additional observations from a re-analysis of the deposited data

Results flagged for a closer look

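A mouse far from the other 3 of its group was found 19 times in 352 groups of 4 mice (176 genes, both strains), where chance alone flags about 1 group in 20. NOD/ShiLtJ mouse DD676, whose forebrain array had the lowest median, gave 6 of the 19, with log2 values of 9.51 for Alad, 7.70 for Tapbp, 5.39 for Mx2, 5.69 for Cxcr4, 5.78 for Chrna6 and 7.37 for Sox9. NOD/ShiLtJ mouse DD675 gave 5, with 4.72 for Tmprss11d, 4.59 for Gpx6, 9.84 for Hlf, 7.31 for Mir300 and 6.72 for Arrdc2. C57BL/6J mouse BB685 gave 4, with 9.06 for Fkbp5, 7.30 for Tma16, 8.53 for Mc4r and 8.38 for Mir665, each the highest of its group. The remaining values were 4.34 for AA388235 in NOD/ShiLtJ mouse DD678, 11.9 for Nefl in C57BL/6J mouse BB701, 5.81 for Cxcr4 in C57BL/6J mouse BB702 and 8.14 for Mir668 in C57BL/6J mouse BB703.

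Among named genes the strain difference in hindbrain differed from that in forebrain for Tmprss11d (1.73), Pkd2l1 (-1.29) and Smyd1 (-0.82) by the test of the difference itself.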

How the results depend on the processing

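The count of 5143 calls was 3322 without whole brain, 7758 with litter size as a random block, 2940 without hindbrain and 1769 with the cerebellum marker mean as a covariate, the last 2 chosen after seeing the data. With litter size nested in strain the block cannot separate the 2. The cerebellum marker mean was 6.94 to 7.65 in NOD/ShiLtJ and 6.59 to 7.09 in C57BL/6J mice. This covariate therefore goes partly with strain, and the fall in calls does not measure a cerebellar share. On the 1.0ST arrays 871 transcripts were called in hindbrain, 857 in whole brain and 7 for strain by region, which gave 1 call among transcripts with a mean above 5. With the mouse as a random replicate block over the 24 arrays, 6112 were called in clozapine mice and 4407 in vehicle mice, and 6543 with surrogate variables and the block.

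Leaving out 1 mouse gave 3644 to 4935 calls for the clozapine comparison, 587 to 1023 for forebrain, 830 to 2596 for hindbrain, 949 to 1147 for whole brain, 0 to 43 for strain by region, 2720 to 3982 for vehicle and 0 to 1 for strain by treatment. Of 176 named genes, 121 kept their side of the threshold without hindbrain and 55 lost a call; 94 kept it with the cerebellum covariate, and 135 on the 1.0ST arrays, where the difference of Thsd1 reversed to 0.016 (FDR 0.569). The cause of these changes was not tested. The signal that a dim probe gives over background limits what low transcripts can show.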

Other observations

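Called genes lay next to each other somewhat more often than the 18.4% of all named genes called would give. Over 18777 genes in RefSeq order, the gene after a called gene was itself called in 23.1% of cases, against 17.3% after a gene that was not called. There were 11 runs of 5 or more adjacent called genes, with 60 genes in all. The longest run held 8 genes on chromosome 4 that lie near Fv1: the tumour necrosis factor receptors Tnfrsf1b (-0.21) and Tnfrsf8 (-0.25), the zinc finger genes Zfp980 (0.28), Zfp600 (0.53), Zfp991 (0.86), Zfp985 (0.17) and Zfp979 (0.95), and Rps19-ps3 (0.74). Zfp979 was at 4.97, 4.96, 4.95 and 4.99 in clozapine-treated NOD/ShiLtJ mice, against 4.09, 4.01, 3.84 and 4.16 in clozapine-treated C57BL/6J mice. Zinc finger genes of this kind are close copies of each other, so their values are uncertain as to the copy.

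A run of 6 on chromosome 2 held Slc25a12 (0.13), which was higher, Hat1 (-0.14), and the homeobox genes Dlx1 (-0.55) and Dlx2 (-0.48), which direct the development of forebrain inhibitory neurons, their antisense gene Dlx1as (-0.60) and the peptidase gene Metap1d (-0.56). The last 4 were lower in clozapine-treated NOD/ShiLtJ and also with vehicle (-0.58, -0.39, -0.59 and -0.46). Dlx1as overlaps its partner, so its value is uncertain. Summed over the 23 placed genes with the largest differences, 226 measured neighbours lay within 5 genes. Of these 70 (31.0%) were called, beside 18.4% of all named genes, among them 7 of 10 around Retsat. Some neighbours were counted more than once, since Gabra6 and Pttg1 lie within 5 genes of each other. By chromosome, the share of genes called ran between 14.1% on X and 23.6% on 12, apart from 0 of 15 on Y.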
